A study of Mus musculus with 19 samples.

Results

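MK-801 was compared with saline in the left prelimbic cortex of mice that had not received the magnetic treatment of the study. The comparison takes the 4 libraries labelled SCZ and the 6 labelled Control, which is 10 of the 19 RNA-seq libraries in the series. Libraries were assigned by their titles. Mice of the SCZ group were injected intraperitoneally with MK-801 at 0.2 mg/kg each day for 2 weeks, and mice of the Control group with the same volume of saline on the same schedule. The other 9 libraries, 4 labelled SCZ+c-MSST and 5 labelled Control+c-MSST, came from mice that had also received iron oxide nanoparticles (SPIO, given as ferumoxytol) in the left prelimbic cortex and a pulsed magnetic field. They were used here as a second measurement of MK-801 against saline that shares no library with the first. The design text dates tissue collection to day 3 after surgery for the whole series; whether mice without c-MSST were operated on is not in the labels. Strain, sex, age, batch and the hour of collection are not in the labels, and neither is whether each library is 1 mouse, so p-values measure only the spread between libraries.

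MK-801 (dizocilpine) blocks the open channel of the NMDA receptor, the glutamate receptor that passes calcium when glutamate binds and the membrane is depolarized. Repeated dosing of rodents with such blockers is widely used to model features of schizophrenia. Calcium entry through this receptor is one of the signals that switch on immediate early genes, such as Fos, Arc and the Egr family, within minutes of neuronal activity, and the MAP kinase phosphatases of the Dusp family are induced beside them and dampen the kinase that signals to the nucleus. GABA-A receptors are the chloride channels of fast inhibition, and the prelimbic cortex is a medial prefrontal area used to study working memory and social behaviour.

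Library totals ran from 65498768 to 82416746 counts in SCZ and from 50140626 to 66818266 in Control. Levels below are CPM, the counts of a gene relative to the total of its library after TMM scaling, and a count of 0 allowed up to 0.0364 to 0.0458 CPM in SCZ and 0.0449 to 0.0598 CPM in Control, for counting error only. Cortical excitatory neuron markers were present in every library: Slc17a7, the vesicular glutamate transporter, was at 859 to 1009 CPM in SCZ and 906 to 1235 CPM in Control. Markers of tissue next to the prelimbic cortex differed strongly among the Control libraries. The summed CPM of 12 striatal neuron markers was 2487 to 3287 in SCZ. In Control it was 2948 in replicate 4, 2521 in replicate 5, 1615 in replicate 1, 698 in replicate 7, 444 in replicate 2 and 419 in replicate 3, so 2 Control libraries lay within the SCZ range and the other 4 below it. All 12 of these markers were higher in SCZ, beside 50.1% of all genes tested, with a median log2 difference of 1.14, and the same median was 1.11 in the pair with c-MSST. Transthyretin (Ttr), which defines choroid plexus, was at 1607 CPM in Control replicate 2 and 149.6 CPM in Control replicate 3, and between 0.289 and 7.78 CPM in the other 8 libraries. The summed CPM of 7 septal and medial forebrain markers was 52.0 to 60.4 in Control replicates 2, 4 and 5 and 63.6 to 85.0 in SCZ replicates 2, 3 and 5, against 18.1 to 26.8 in the other 4. A further split lay in haemoglobin: Control replicates 4 and 5 held 59.2 and 104 CPM of Hbb-bs and about 0.19 CPM of Hbb-b1, while the other 8 libraries held 0.846 to 4.60 CPM of Hbb-bs and 49.2 to 96.3 CPM of Hbb-b1. These beta-globin genes are near-identical copies, so reads can be shared between them. Neither gene's levels overlapped between the 2 sets of libraries, and the source of this split was not tested. The part of these differences in the results below is given as values with libraries left out or with marker scores as covariates.

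**Figure D1:**
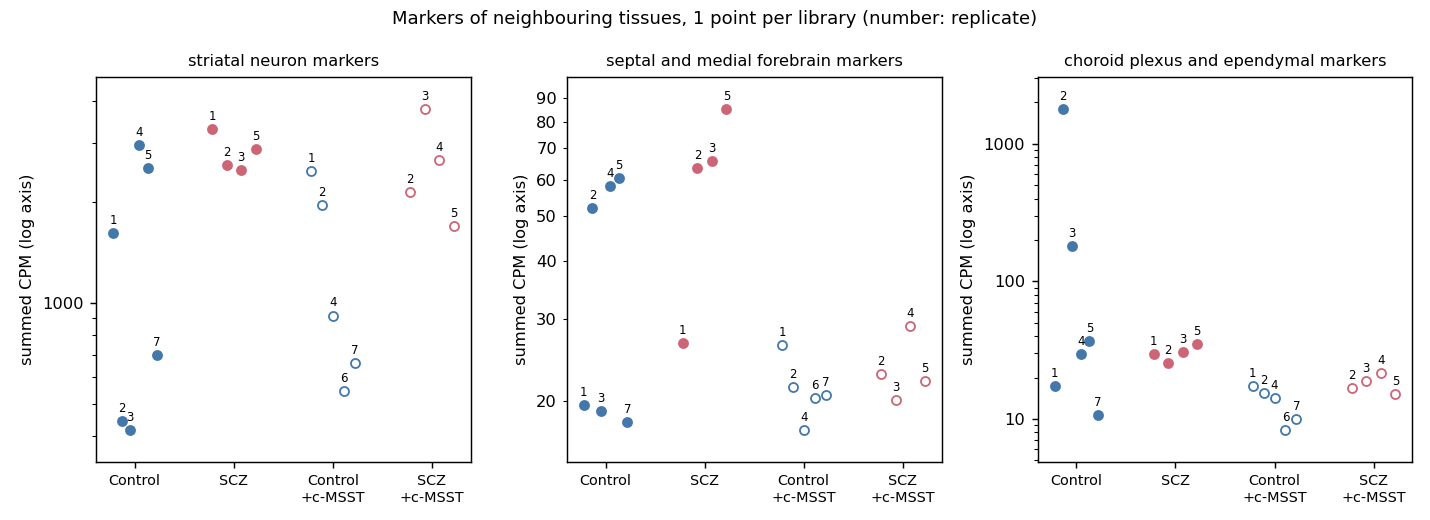
Summed CPM (log axis) of marker genes of 3 neighbouring tissues in each of the 19 libraries, by group; each point is 1 library and the number beside it is its replicate number. The 4 SCZ libraries lie between 2487 and 3287 for striatal markers while Control runs from 419 to 2948, and Control replicate 2 stands at 1785 for choroid plexus markers.

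No gene passed the threshold between SCZ and Control. Of 16417 genes tested with edgeR's quasi-likelihood test, 0 (0%) had an adjusted p under 0.05, and the smallest adjusted p was 0.0649. At an unadjusted p under 0.05 there were 2219 genes (13.5%), where 821 would be expected if no gene differed, with 1000 (6.09%) higher and 1219 (7.43%) lower in SCZ. CPM ranges did not overlap for 262 genes (1.6%) that were higher and 205 (1.25%) that were lower in SCZ. Differences were small, with a median absolute log2 fold change of 0.11. The number of calls depended on the tool: DESeq2 called 238 genes, 81 higher and 157 lower, limma voom called 2, and edgeR fitted to the 10 libraries alone called 1. Below, higher and lower describe fitted values, and none of the genes named passed edgeR's adjusted threshold in the fit to all 19 libraries.

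Among the 12 genes with the smallest p that were higher in SCZ, Cops2 came first. Cops2 (ENSMUSG00000027206, mm10 chr2:125830304-125859139, minus strand, protein coding) encodes subunit 2 of the COP9 signalosome, which removes NEDD8 from cullin ubiquitin ligases. It was at 90.3, 96.2, 91.0 and 84.8 CPM in SCZ and at 53.5 (lowest), 59.2 (median) and 65.0 CPM (highest) in Control. The groups did not overlap, and the log2 fold change was 0.62 (SE 0.10, adjusted p = 0.0649 by edgeR). It was the gene called by limma on FPKM values, by edgeR with upper-quartile scaling (adjusted p = 0.0425), by edgeR on the 10 libraries (adjusted p = 0.0148) and, with Lifr, by voom. Leaving out each library in turn gave 0.59 to 0.65. In the pair with c-MSST its log2 fold change was 0.02 (SE 0.10), and the difference between the pairs had an unadjusted p of 4.1e-04 by edgeR. That difference contains the contrast by which Cops2 was picked, so its p is no test of its own.

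Hes5 (chr4:154960923-154962371, plus strand, protein coding), a transcriptional repressor switched on by Notch, was at 6.54, 7.67, 8.60 and 10.1 CPM in SCZ and at 2.7, 3.78 and 5.98 CPM (lowest, median, highest) in Control. All SCZ libraries were above all Control libraries (log2 fold change 1.06, SE 0.22; adjusted p = 0.148 by edgeR). In the pair with c-MSST it was -0.73 (SE 0.24). Hes5 had the smallest p of all genes for the difference between the pairs (2.85e-05), which did not pass adjustment (adjusted p = 0.242 by edgeR). Id3, a helix-loop-helix inhibitor named after its values were seen, had the same pattern, with log2 fold changes of 0.64 without and -0.51 with c-MSST.

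The remaining genes of this set came from unlike functions. Sez6, a membrane protein of dendrites, was at 408, 398, 406 and 420 CPM in SCZ and at 236 to 352 CPM in Control (log2 fold change 0.42). It was one of 2 of these 12 that also had an unadjusted p under 0.05 and the same direction with c-MSST (0.36). The other was the histone gene H3c6 (0.81 and 0.51), whose reads could be shared with near-identical histone genes. Among all 16417 genes tested, 1257 had such a p and the same direction with c-MSST. Galnt13, which starts mucin-type O-glycosylation, was at 73.6, 51.3, 74.2 and 77.2 CPM in SCZ and at 27.9 to 48.3 CPM in Control (0.91). Ache, acetylcholinesterase, was 0.37 higher and Cdo1, cysteine dioxygenase, 0.49 higher on the log2 scale, both without overlap of the groups. Mrps33 and Mrpl52, proteins of the mitochondrial ribosome, were 0.30 and 0.48 higher, again without overlap. Vat1 (0.48) was the only 1 of the 12 whose groups overlapped, Tmem94 had the smallest difference (0.22) and Cgref1 was 0.59 higher.

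Lifr came first among the 12 genes that were lower in SCZ. Lifr (ENSMUSG00000054263, chr15:7090614-7197489, plus strand, protein coding) encodes a receptor chain for leukaemia inhibitory factor, a cytokine of the interleukin-6 family. It was at 105, 77.8, 80.3 and 91.4 CPM in SCZ and at 115 (lowest), 122 (median) and 143 CPM (highest) in Control. Every SCZ library was below every Control library (log2 fold change -0.50, SE 0.08; adjusted p = 0.0958 by edgeR). Without SCZ replicate 1 it was -0.59 and passed (adjusted p = 0.0190 by edgeR). The c-MSST pair gave -0.19 (SE 0.09, unadjusted p = 0.0400).

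Pcdh19, a protocadherin of neuronal contacts, was at 59.1, 38.4, 45.1 and 42.4 CPM in SCZ and at 64.4 to 91.0 CPM in Control (log2 fold change -0.73). Dyrk3, a dual-specificity kinase, was at 10.1, 8.51, 8.09 and 6.33 CPM in SCZ and at 11.4 to 18.3 CPM in Control (-0.77). Neither gene's groups overlapped. Hdac4, a class IIa histone deacetylase, differed by -0.32 and Neurod2, a transcription factor of excitatory neurons, by -0.52, and all 4 SCZ libraries were below Control for both. Kcnj6, which encodes the GIRK2 potassium channel opened by G proteins, was at 96.3, 95.2, 92.6 and 83.8 CPM in SCZ and at 104 to 139 CPM in Control (-0.40). Lifr, Pcdh19 and Kcnj6 were the 3 of these 12 with an unadjusted p under 0.05 in the same direction with c-MSST, beside 1257 of all 16417 genes. With c-MSST Pcdh19 was at -0.30 and Kcnj6 at -0.25. Trio, a guanine nucleotide exchange factor and one of the rare-variant schizophrenia risk genes, differed by -0.19, with 462 to 480 CPM in SCZ against 504 to 570 CPM in Control. The other 5 were B4galnt3 (-0.88), Acot10 (-0.69), Osbpl6 (-0.30), Arhgap21 (-0.25) and Mast2 (-0.23), and Osbpl6 alone among the 12 overlapped. These 24 genes were chosen by their p in this contrast, so their size and separation carry no test of their own. The same holds for their difference between the pairs, which contains this contrast. With the striatal score as a covariate the median log2 fold change of the 12 higher genes went from 0.49 to 0.34 and that of the 12 lower genes from -0.45 to -0.26. With that score none of the 24 passed edgeR's adjusted threshold. With Control replicates 4 and 5 left out, all 24 passed it. Those are the Control libraries whose striatal markers lay within the SCZ range.

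**Figure D2:**
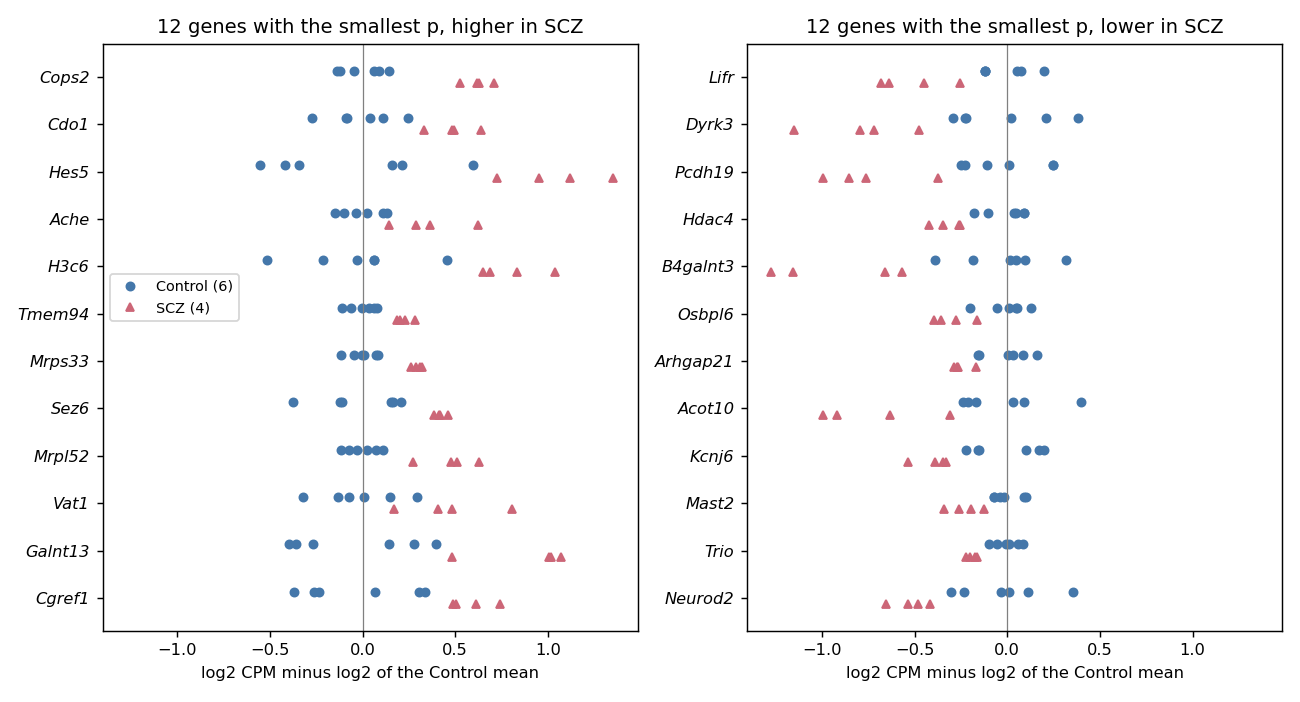
The 12 genes with the smallest edgeR p in each direction: log2 CPM of each library minus log2 of the Control mean, for 6 Control libraries (circles) and 4 SCZ libraries (triangles). Groups are apart for all but Vat1 and Osbpl6; Cops2 lies between 84.8 and 96.2 CPM in SCZ and between 53.5 and 65.0 CPM in Control.

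Immediate early genes were lower in SCZ in 19 of 21 cases, beside 49.9% of all genes, with a median log2 fold change of -0.71 where the median over all genes was 0.00. At an unadjusted p under 0.05, 16 of the 21 were lower and 1 was higher, beside 7.43% and 6.09% of all genes. CPM did not overlap for 2 of them, Arc and Nr4a1, beside 1.25% of all genes that were lower without overlap. All 6 MAP kinase phosphatases were lower as well, with a median of -0.50 and 4 at an unadjusted p under 0.05, beside 7.43% of all genes. Of these, Dusp5 and Dusp1 did not overlap, beside the same 1.25%. None passed adjustment in edgeR (smallest adjusted p = 0.148). Since all of these are bulk tissue levels, fewer expressing cells and less RNA per cell cannot be told apart.

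The promoters of the 4 phosphatase and early genes with the smallest p that the promoter table holds are shown because cyclic AMP and calcium signals reach such genes through the CRE and serum response signals through the CArG box. Each line gives the 250 bases before the start annotated by RefSeq (GRCm38.p6), 5′ to 3′ on the gene's strand, with matches in capitals. Matches searched on both strands were the CRE core TGACG, the full CRE TGACGTCA, which holds overlapping cores on its strands, and the CArG box.
Dusp5 (chr19:53528895-53529144, plus strand): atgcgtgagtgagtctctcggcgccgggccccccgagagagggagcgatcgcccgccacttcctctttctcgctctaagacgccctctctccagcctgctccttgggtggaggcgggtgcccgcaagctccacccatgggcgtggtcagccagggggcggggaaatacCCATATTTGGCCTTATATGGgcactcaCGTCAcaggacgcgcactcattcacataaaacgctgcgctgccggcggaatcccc
Nr4a1 (chr15:101266596-101266845, plus strand): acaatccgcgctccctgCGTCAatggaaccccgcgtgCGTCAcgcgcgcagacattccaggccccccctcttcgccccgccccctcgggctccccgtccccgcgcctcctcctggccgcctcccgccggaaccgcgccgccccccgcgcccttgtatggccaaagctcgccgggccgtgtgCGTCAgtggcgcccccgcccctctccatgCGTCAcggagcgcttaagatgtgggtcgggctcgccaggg
Dusp1 (chr17:26508473-26508722, minus strand): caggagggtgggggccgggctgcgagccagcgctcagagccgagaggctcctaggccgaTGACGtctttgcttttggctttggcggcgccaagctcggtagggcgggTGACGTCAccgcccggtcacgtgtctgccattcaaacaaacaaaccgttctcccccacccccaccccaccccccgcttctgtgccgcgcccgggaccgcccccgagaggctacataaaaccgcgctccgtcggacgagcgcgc
Dusp6 (chr10:99262981-99263230, plus strand): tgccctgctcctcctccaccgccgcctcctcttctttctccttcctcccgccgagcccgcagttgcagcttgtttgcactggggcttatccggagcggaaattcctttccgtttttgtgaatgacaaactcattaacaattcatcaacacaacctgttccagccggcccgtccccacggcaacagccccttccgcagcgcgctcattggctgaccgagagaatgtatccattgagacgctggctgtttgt

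The Dusp5 window held 2 adjoining CArG boxes and 1 CRE core, the Nr4a1 window 4 CRE cores, and the Dusp1 window a full CRE and 3 cores, 2 of which are the strands of that full site. The Dusp6 window held none of these. Of 27025 promoter windows of this length, 17.9% held a CRE core, 1.62% a full CRE and 1.4% a CArG box. Among the 21 early genes, 17 had a window, and 12 of those held a CRE core, 1 a full CRE and 0 a CArG box. Of the 6 phosphatases, 5 had a window, of which 2 held a CRE core, 1 a full CRE and 1 a CArG box. The windows of Nr4a1 and Dusp1 and the end of that of Dusp5 lie inside the longer gene spans of GENCODE. These are matches of letters in a window and do not show binding.

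Arc (chr15:74669083-74672570, minus strand, protein coding), which encodes a postsynaptic protein that controls AMPA receptor endocytosis, was at 60.5, 82.6, 75.8 and 67.0 CPM in SCZ. In Control it was at 92.4 (lowest), 164 (median) and 229 CPM (highest), so the groups did not overlap. Its log2 fold change was -1.15 (SE 0.26, unadjusted p = 3.85e-04), and Arc was also lower with c-MSST (-0.74, SE 0.26, unadjusted p = 0.0120). Dusp5, a nuclear phosphatase of ERK, was at 3.86, 4.72, 5.09 and 4.15 CPM in SCZ and at 6.54, 8.62 and 21.4 CPM in Control (-1.29, SE 0.29). Nr4a1, an orphan nuclear receptor, was at 28.0, 34.2, 35.6 and 38.8 CPM in SCZ and at 41.0, 61.6 and 84.1 CPM in Control (-0.91, SE 0.21). Dusp1, which acts on the p38 and JNK kinases, was at 13.8, 15.6, 16.0 and 18.2 CPM in SCZ and at 20.6, 25.5 and 36.8 CPM in Control (-0.73, SE 0.20). For these 3 genes, too, every SCZ library was below every Control library. Dusp6, a cytoplasmic ERK phosphatase, overlapped, with 41.8, 56.4, 50.6 and 41.2 CPM in SCZ and 52.8, 61.4 and 72.1 CPM in Control (-0.39, SE 0.11).

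Other early genes overlapped between the groups. Ccn1, a secreted matrix protein, was at 2.56, 2.44, 2.31 and 3.40 CPM in SCZ and at 3.26, 6.04 and 10.7 CPM in Control (log2 fold change -1.29, SE 0.37). Egr2 (-1.05), Btg2 (-0.77), Klf2 (-0.84) and Egr1 (-0.49) were lower at unadjusted p of 0.00505, 0.00755, 0.00763 and 0.0131. Fos, named after its values were seen, was at 5.99, 13.9, 11.8 and 10.3 CPM in SCZ and at 9.11, 20.5 and 28.0 CPM in Control (-0.96, SE 0.35). The members that were higher were Jund, a constitutive partner of Fos proteins, by 0.15, and Npas4, a transcription factor tied to calcium entry in neurons, by 0.63 (SE 0.39, unadjusted p = 0.125). Npas4 was named after its values were seen. It was at 8.82, 21.5, 29.2 and 33.0 CPM in SCZ and at 9.79, 13.2 and 26.4 CPM in Control, so its values went against those of the other early genes without a difference beyond their spread.

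The level of early genes also varied within Control. The mean log2 CPM of the 21 genes, each gene taken relative to its average level in the 19 libraries, was -0.64, -0.34, -0.33 and -0.45 in SCZ. In Control it was 0.38, 0.43, 0.30, 0.04 and -0.05 in replicates 1, 2, 3, 4 and 7 and -0.45 in replicate 5, which lay within the SCZ range. Control replicates 2 and 3, with the choroid plexus signal and the fewest striatal markers, were among the 3 highest. Without these libraries 8 of 21 genes were lower at an unadjusted p under 0.05 and the median was -0.43. With the striatal score as a covariate 4 were lower and 2 higher at that p, and the median was -0.37. Without Control replicates 4 and 5, 15 were lower and 1 higher, and the median was -0.89.

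In the pair with c-MSST the early genes did not follow this direction. Of 21, 10 were higher and 11 lower with MK-801, beside 49.9% and 50.1% of all genes, with a median of 0.00, and the phosphatases had a median of -0.03. The difference between the pairs had an unadjusted p under 0.05 for 11 of the 21, beside 7.29% of all genes, and for none of them did it pass adjustment. Ccn1 was 1.29 lower without and 0.96 higher with c-MSST on the log2 scale, with an unadjusted p of 4.1e-04 for the difference. For Dusp1 the values were -0.73 and 0.39 (unadjusted p = 8.3e-04 for the difference). Ccn1 and Dusp1 were named for a small p without c-MSST, which is part of this difference, so these p-values are no independent test. For Arc they were -1.15 and -0.74, and their difference was within its error (unadjusted p = 0.275).

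**Figure D3:**
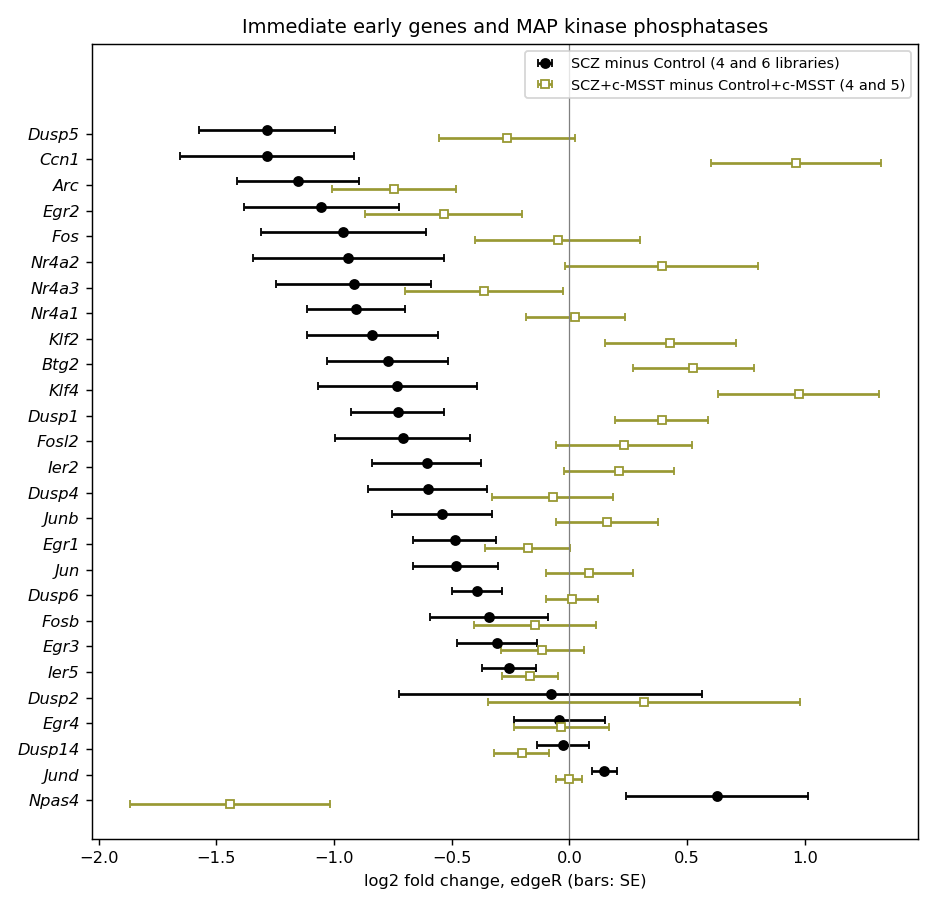
Log2 fold change of MK-801 against saline, with its standard error from edgeR, for 21 immediate early genes and 6 MAP kinase phosphatases, without c-MSST (filled circles, 4 and 6 libraries) and with c-MSST (open squares, 4 and 5 libraries). Values without c-MSST lie below 0 for all but Jund and Npas4, while those with c-MSST lie on both sides of 0.

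Delayed genes of the activity response had a smaller median difference than the early genes. Of 18, 11 were lower and 7 higher, and the median was -0.15. At an unadjusted p under 0.05, 6 were lower (3 without SCZ replicate 5) and 1 higher, beside 7.43% and 6.09% of all genes. With the striatal score as a covariate 15 of 18 were lower (median -0.19), with 5 lower and 0 higher at that p. Tiparp, a mono-ADP-ribosyltransferase, was at 13.4, 15.6, 16.0 and 16.0 CPM in SCZ and at 14.3, 24.8 and 26.4 CPM in Control (log2 fold change -0.57, SE 0.16). Bdnf, the neurotrophin, differed by -0.38 and Ptgs2, cyclooxygenase 2, by -0.50. Homer1, the member with the most counts, was at 199 to 258 CPM in SCZ and 198 to 308 CPM in Control and did not differ beyond its spread (-0.10, SE 0.11).

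Corticosteroid response genes were lower in 17 of 19 cases, with a median log2 fold change of -0.40, beside 49.9% of all genes that were lower, and 10 were lower and none higher at an unadjusted p under 0.05, beside 7.43% and 6.09% of all genes. Glucocorticoid hormones act on these genes through a nuclear receptor, and several are also induced by neuronal activity. Per1, which is on this list, on the delayed list and on the clock list, was at 115, 110, 110 and 106 CPM in SCZ and at 118, 148 and 163 CPM in Control (-0.40, SE 0.10). Nfkbia, the inhibitor of NF-kappa-B, was at 16.0, 13.3, 12.5 and 13.9 CPM in SCZ and at 16.1, 22.4 and 25.8 CPM in Control (-0.62, SE 0.18). Those 2 were the members whose groups did not overlap, beside 1.25% of all genes that were lower without overlap. In Arrdc2 and Plin4, SCZ replicate 1 stood apart from the other SCZ libraries: Arrdc2, an arrestin-domain gene, was at 11.4, 6.67, 6.39 and 6.25 CPM in SCZ and at 9.97, 13.7 and 14.4 CPM in Control. Plin4, a coat protein of lipid droplets, was at 22.8, 10.0, 11.8 and 9.64 CPM in SCZ and at 17.2, 21.2 and 23.9 CPM in Control, and without SCZ replicate 1 it differed by -0.999 and passed (adjusted p = 0.0190 by edgeR). Ddit4 (-0.69), an inhibitor of mTORC1, and Errfi1 (-0.46), an inhibitor of the EGF receptor, overlapped. Klf9, a transcription factor and the member with the most counts, differed by -0.18. With c-MSST the list's median was 0.04, and Arrdc2 was 0.50 higher there with an unadjusted p of 1.8e-04 for the difference. The count of 10 was 9 with the striatal score as a covariate, 6 with 3 scores, those of striatal, septal and choroid plexus markers, in the fit (median -0.25), 9 without Control replicates 2 and 3 and 10 without Control replicates 4 and 5.

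Clock genes were lower in 13 of 19 cases with a median of -0.06, and 5 were lower and 1 higher at an unadjusted p under 0.05, beside 7.43% and 6.09% of all genes. With the striatal score as a covariate 9 were lower (median 0.00) and 3 of them were past that p. Without SCZ replicate 5, 2 were lower at that p. Per2, a repressor of the clock, was at 46.5, 45.6, 51.5 and 49.1 CPM in SCZ and at 49.96, 61.4 and 84.1 CPM in Control (-0.39, SE 0.14), and it was also lower with c-MSST (-0.45, SE 0.14). Tef, the clock gene with the most counts, differed by -0.02 (SE 0.06).

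NMDA receptor subunits, the targets of MK-801, differed little apart from Grin2a. Of 7 subunits, 3 were higher and 4 lower, the median was -0.03, and 1 was lower at an unadjusted p under 0.05, beside 7.43% of all genes. Grin2a (chr16:9567898-9995560, minus strand, protein coding), which encodes the GluN2A subunit of mature synapses and is a rare-variant schizophrenia risk gene, was at 677, 644, 580 and 530 CPM in SCZ and at 656 (lowest), 853 (median) and 1085 CPM (highest) in Control. SCZ replicate 1 lay above the lowest Control library, and the log2 fold change was -0.51 (SE 0.13, unadjusted p = 8.1e-04, adjusted p = 0.148 by edgeR). By edgeR it was -0.40 with the striatal score as a covariate (adjusted p = 0.651) and -0.30 with 3 scores (adjusted p = 0.816). Without Control replicates 2 and 3 it was -0.53 (adjusted p = 0.224 by edgeR). Without Control replicates 4 and 5 it was -0.67 and passed (adjusted p = 0.00319 by edgeR). Those are the Control libraries whose striatal markers lay within the SCZ range. With c-MSST it was -0.04 (SE 0.13), with an unadjusted p of 0.0190 for the difference. Grin1, the obligatory GluN1 subunit, was at 600, 558, 525 and 527 CPM in SCZ and at 539, 584 and 732 CPM in Control (-0.14, SE 0.07). Grin2b, which encodes GluN2B, was at 434, 439, 408 and 406 CPM in SCZ and at 422, 487 and 527 CPM in Control (-0.18). Its SE of 0.39 came with 1 library outside this comparison, Control+c-MSST replicate 7, at 2559 CPM. Grin2c (0.02), Grin3a (-0.03) and Grin3b (0.20) differed by less than their spread.

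Other glutamate receptors had values on both sides of 0. Of 9 AMPA and kainate receptor subunits, 3 were higher and 6 lower (median -0.06). Grik2, a kainate receptor subunit, was at 200, 198, 194 and 206 CPM in SCZ and at 117, 164 and 188 CPM in Control, without overlap (log2 fold change 0.32, SE 0.10). Grik4, another kainate subunit, differed by -0.31 (SE 0.13) and Gria2, the AMPA subunit that blocks calcium entry, by -0.05 (SE 0.04). Of 7 metabotropic receptors, 4 were higher and 3 lower (median 0.06, and -0.04 without Control replicates 2 and 3). Grm4 (0.54, SE 0.20) was the 1 with an unadjusted p under 0.05, beside 6.09% of all genes that were higher. It was at 57.0, 55.0, 52.7 and 60.8 CPM in SCZ and at 29.4, 33.6 and 55.2 CPM in Control, and its c-MSST value was 0.57. Grm5 and Grm2 differed by 0.08 and -0.32 and did not reach an unadjusted p of 0.05.

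Of 19 GABA-A receptor subunits, 16 had enough counts to be tested, and 11 of these were higher and 5 lower in SCZ (median 0.13), with 4 higher and 1 lower at an unadjusted p under 0.05, beside 6.09% and 7.43% of all genes. The 4 were 1 with the striatal score as a covariate and 2 without SCZ replicate 3 or 5. Gabrg1 (chr5:70751047-70842617, minus strand, protein coding), a gamma subunit, was at 24.4, 31.0, 34.9 and 37.8 CPM in SCZ and at 15.5, 20.5 and 26.8 CPM in Control. Only SCZ replicate 1 lay within the Control range, and the log2 fold change was 0.67 (SE 0.15, unadjusted p = 3.64e-04). It was 0.43 (SE 0.16) with c-MSST. Gabra5, an alpha subunit of extrasynaptic receptors, was at 57.5, 60.5, 60.4 and 58.2 CPM in SCZ and at 55.1, 72.2 and 132 CPM in Control (-0.50, SE 0.21). Gabra4 (0.22, SE 0.09) was higher at an unadjusted p of 0.0212, while Gabrd (0.32, SE 0.17), its partner in extrasynaptic receptors, was not past 0.05.

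Gabre (chrX:72255999-72274803, minus strand, protein coding), which encodes the epsilon subunit named in the title of the series, was close to the limit of detection. Control replicates 1, 2, 3, 4, 5 and 7 had 0, 22, 8, 8, 12 and 8 counts of it, against 19, 16, 80 and 108 in SCZ replicates 1, 2, 3 and 5. That is 0.261, 0.242, 1.09 and 1.25 CPM in SCZ against 0 (lowest), 0.131 (median) and 0.327 CPM (highest) in Control. SCZ replicates 3 and 5 were above every Control library and SCZ replicates 1 and 2 within the Control range. The fitted log2 fold change was 2.22 (SE 0.98, unadjusted p = 0.0351, adjusted p = 0.331 by edgeR). With c-MSST it was -2.06 (SE 1.23), and the difference between the pairs had an unadjusted p of 0.0143. Gabrq, the theta subunit, had 203, 179, 347 and 722 counts in SCZ and 95, 44, 247, 177, 234 and 36 in Control in the same order of replicates (1.03, SE 0.46). Its highest library was SCZ replicate 5, which also held the most septal and medial forebrain markers, 85.0 CPM in sum.

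Genes of GABA synthesis and vesicular transport were higher in SCZ. Of 10 genes of GABA synthesis, transport and GABA-B receptors, 7 were higher and 3 lower (median 0.15), with 5 higher and 1 lower at an unadjusted p under 0.05, beside 6.09% and 7.43% of all genes. Slc32a1, the vesicular GABA transporter, was at 86.7, 90.2, 101 and 114 CPM in SCZ and at 45.7, 53.3 and 84.1 CPM in Control, without overlap (log2 fold change 0.69, SE 0.17). Gad2, which makes GABA at terminals, was at 148, 173, 190 and 227 CPM in SCZ and at 80.2, 98.6 and 174 CPM in Control (0.71, SE 0.20). Striatal projection neurons use GABA, and the striatal markers differed in the same direction as these genes. The source of the difference in these genes was not tested. With the striatal score as a covariate Slc32a1 differed by 0.35, and 3 of the list were higher at an unadjusted p under 0.05, as without SCZ replicate 5. Gabbr1, a GABA-B receptor gene and the one with the most counts here, differed by 0.04 (SE 0.04). Interneuron subtype markers had no common direction, with 6 of 17 higher and 11 lower (median -0.08). Crhbp, of somatostatin cells, was at 8.48, 8.36, 8.69 and 8.89 CPM in SCZ and at 9.14, 10.5 and 12.2 CPM in Control (-0.29, SE 0.10), and Htr3a, the ionotropic serotonin receptor, differed by -0.53 (SE 0.20).

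Of 16 receptors for dopamine and serotonin, 9 were higher (median 0.16). Drd2, the D2 receptor of striatal neurons and named after its values were seen, was at 92.0, 69.2, 59.8 and 73.0 CPM in SCZ and ran from 2.69 to 68.5 CPM in Control. Its log2 fold change of 1.26 had an SE of 0.89, and it is itself 1 of the 12 striatal markers. The direction turned with the striatal score as a covariate (-0.29) and with 3 marker scores (-0.19). Since the striatal score holds Drd2, these values are no independent check. With sets of Control libraries left out the value ran from 0.40 to 2.49. The list's median was -0.01 with 3 scores, of which the striatal one holds Drd1 and Drd2. Htr1b was 0.68 higher (SE 0.25) and Htr2a 0.38 higher (SE 0.31).

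Potassium channel genes were lower in 15 of 18 cases (median -0.14), with 7 lower and 1 higher at an unadjusted p under 0.05, beside 7.43% and 6.09% of all genes. The 7 were 3 with the striatal score as a covariate, 4 with 3 scores and 4 without SCZ replicate 5. Kcnj3, which encodes GIRK1 and pairs with the product of Kcnj6, was at 156, 152, 152 and 130 CPM in SCZ and at 156, 188 and 212 CPM in Control (log2 fold change -0.34, SE 0.08), and both channel genes were without overlap. With c-MSST Kcnj3 differed by -0.02, with an unadjusted p of 0.00914 for the difference, and Kcnj6 by -0.25.

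Genes of the synapse were lower by small amounts. Postsynaptic scaffold genes were lower in 12 of 16 cases (median -0.09), and 5 were lower at an unadjusted p under 0.05, beside 7.43% of all genes. The 5 were 0 with the striatal score as a covariate or with 3 scores, 1 without SCZ replicate 5, 2 without Control replicate 2 and 9 without Control replicates 4 and 5. Dlgap1, which links PSD-95 to Shank proteins, was at 702, 719, 719 and 628 CPM in SCZ and at 699, 836 and 870 CPM in Control (log2 fold change -0.22, SE 0.06). Camk2a, the alpha subunit of calcium/calmodulin-dependent kinase II, was at 4041, 3735, 3577 and 3306 CPM in SCZ and at 3642, 4356 and 5087 CPM in Control (-0.25, SE 0.09). Synaptic vesicle and release genes were lower in 15 of 18 cases (median -0.14), but only 2, Syn1 (-0.19) and Pclo (-0.20), had an unadjusted p under 0.05, beside 7.43% of all genes. Snap25 differed by -0.14 (SE 0.11). Rare-variant schizophrenia risk genes were lower in 8 of 10 cases (median -0.09), 3 of them at an unadjusted p under 0.05 (6 without Control replicate 3), beside 7.43% of all genes. Grin2a and Trio had the smallest p, and Herc1 was at -0.09 (SE 0.04). Neuregulins and their ErbB receptors were higher in 5 of 8 cases (median 0.11). Nrg1, the ligand, was at 39.8, 25.5, 38.7 and 38.9 CPM in SCZ and at 12.4, 24.2 and 27.4 CPM in Control (0.67, SE 0.24), while its receptors Erbb4 and Erbb2 differed by -0.01 and 0.21. Perineuronal net components were split 5 and 5 (median -0.04), with none at an unadjusted p under 0.05 and Hapln4 at -0.29 and Ncan at -0.10.

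Genes of ribosomes, respiration and protein breakdown were higher by small amounts in nearly every member. Cytosolic ribosomal protein genes were higher in 38 of 40 cases (median 0.12), with 15 higher and none lower at an unadjusted p under 0.05, beside 6.09% and 7.43% of all genes. Rpl13 was at 112, 116, 124 and 111 CPM in SCZ and at 89.0, 94.5 and 108 CPM in Control, without overlap (log2 fold change 0.25, SE 0.06), Rplp1 differed by 0.29 (SE 0.08) and Rpsa by 0.13 (SE 0.06). The reads of these genes can be shared with processed pseudogenes. Nuclear genes of oxidative phosphorylation were higher in 19 of 20 cases (median 0.09) with 5 at an unadjusted p under 0.05, beside 6.09% of all genes. The 5 were 1 with the striatal score as a covariate and 1 to 8 with 1 library left out, and without Control replicate 1 the median was 0.04 with 1 at that p. Ndufa1, a subunit of complex I, was at 29.1, 31.1, 31.2 and 28.4 CPM in SCZ and at 21.0, 23.6 and 26.1 CPM in Control, again without overlap (0.34, SE 0.08), and Cox4i1 and Atp5b differed by 0.11 and 0.09. All 14 proteasome core subunits were higher (median 0.08), with 2 at an unadjusted p under 0.05, Psmb1 (0.17) and Psmb5 (0.20), beside 6.09% of all genes. Leaving out Control replicate 1, Control replicate 2 or SCZ replicate 3 gave 12 higher. At that p there was 1 without Control replicate 1 (median 0.064), and there were 7 without Control replicates 4 and 5. COP9 signalosome subunits were higher in 9 of 10 cases (median 0.11), with 3 at an unadjusted p under 0.05 (1 with the striatal score or without SCZ replicate 1), beside 6.09% of all genes. Next to the 0.62 of Cops2 stood 0.12 for Gps1 and 0.11 for Cops7a. The ribosomal count moved with the libraries and the covariate: 4 were higher and 2 lower with the striatal score, 8 were higher without SCZ replicate 2, without Control replicate 7 or without Control replicates 2, 3 and 7, 9 without SCZ replicate 3, and 27 were higher without Control replicates 4 and 5. Ribosomal genes were higher in 36 of 40 cases with c-MSST as well, with a median of 0.05 and 9 at an unadjusted p under 0.05 beside 5.46% of all genes. Oxidative phosphorylation genes were higher in 17 of 20 cases there (median 0.064). Proteasome subunits were not, with 6 higher and 8 lower (median -0.025). Of the COP9 subunits 4 were higher and 6 lower with c-MSST (median -0.007), with 2 lower at an unadjusted p under 0.05, beside 5.51% of all genes.

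Lists of endothelial, astrocyte, myelin, microglia and oligodendrocyte precursor markers had medians between -0.10 and 0.12. Endothelial markers were higher in 11 of 14 cases (median 0.10), with 6 higher and 1 lower at an unadjusted p under 0.05, beside 6.09% and 7.43% of all genes. The 6 were 3 with the striatal score as a covariate and 2 with 3 scores. Itm2a was at 27.5, 27.4, 29.8 and 29.2 CPM in SCZ and at 21.6, 22.9 and 25.5 CPM in Control, without overlap (log2 fold change 0.29, SE 0.08), Cldn5, of tight junctions, differed by 0.37 and Bsg by 0.12. Astrocyte markers were lower in 8 of 12 cases (median -0.10), 3 of them at an unadjusted p under 0.05, beside 7.43% of all genes. Slc1a2, the main glutamate transporter, was at 3929, 3892, 3763 and 3749 CPM in SCZ and at 4136, 4625 and 6591 CPM in Control (-0.36, SE 0.11), and Gjb6, a gap junction protein, was at 27.0 to 33.2 CPM against 33.5 to 45.8 CPM (-0.31, SE 0.09). Both were without overlap. Myelin genes were higher in 13 of 16 cases (median 0.12) with none at an unadjusted p under 0.05, but with the striatal score as a covariate 15 of 16 were lower (median -0.145) and with 3 scores 13 (median -0.098). Mbp differed by 0.11 (SE 0.23) and Gjb1 by 0.35, and Enpp2, at 822 CPM in Control replicate 2, by -0.65. Microglia markers were split 7 and 5 (median 0.03), with Aif1 0.53 higher, Csf1r 0.05 higher and P2ry12 0.95 lower with an SE of 0.58. Oligodendrocyte precursor markers were split 6 and 4 (median 0.04) with none at an unadjusted p under 0.05. Bmp4, Sox10 and Pdgfra differed by 0.47, 0.27 and -0.07. With c-MSST, 9 of 12 astrocyte markers were higher (median 0.055) and endothelial markers were split 7 and 7 (median -0.026). Of the others, 15 of 16 myelin genes (median 0.431), 11 of 12 microglia markers (median 0.101) and 7 of 10 precursor markers (median 0.13) were higher there.

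Markers of upper and deep cortical layers had medians of opposite sign, both of which moved with 1 library. Without Control replicate 7 the upper layer median was -0.02, with 5 higher and 5 lower, and the deep layer median 0.09, and without SCZ replicate 3 the latter was 0.09 as well. With the striatal score as a covariate the deep layer median was 0.06 with none at an unadjusted p under 0.05, and the upper layer median -0.27. Upper layer markers were lower in 8 of 10 cases (median -0.13), none at an unadjusted p under 0.05, with Cux2 at -0.25, Mef2c at -0.25 and Otof at 0.38. Deep layer markers were higher in 9 of 13 cases (median 0.25), 3 of them at an unadjusted p under 0.05, beside 6.09% of all genes. Rprm, of layer 6 neurons, was at 31.4, 31.1, 31.9 and 28.9 CPM in SCZ and at 18.9, 24.7 and 30.0 CPM in Control (0.31, SE 0.10), while Tbr1 differed by -0.17. Foxp2, which striatal neurons express too, was 0.76 higher (SE 0.32). Among markers of other regions, the thalamic list was higher in 7 of 8 cases (median 0.17; Synpo2 0.54, Tnnt1 0.56, Rora -0.05) and the olfactory bulb and precursor list in 7 of 8 (median 0.58; Th 1.19, Dlx1 0.39, Dcx 0.00). Septal markers were higher in 7 of 7 cases (median 0.65), with Lhx8 at 2.14 (SE 1.24), Ngfr at 1.27 (SE 0.56) and Zic1 at 0.65 (SE 0.41). Choroid plexus and ependymal markers were lower in 10 of 12 (median -0.81), but without Control replicate 2 alone 9 of 12 were higher (median 0.155), and without Control replicates 2 and 3 the median was 0.391. Ttr (-7.00) and Kl (-2.16) rested on Control replicates 2 and 3: without them the values were 0.04 and 0.43. Blood and meningeal markers were lower in 7 of 12 (median -0.11, and 0.02 without Control replicate 3), where Dcn, at 53.9 CPM in Control replicate 3, differed by -1.25, Hbb-bs by -3.35 and Hba-a2 by 0.94. Of the 12 striatal markers, Adcy5 (0.91) and Tac1 (1.35) had an unadjusted p under 0.05, beside 6.09% of all genes that were higher.

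Heat shock genes were split 6 and 8 (median -0.01) with none at an unadjusted p under 0.05, and Hspa8, Hspb1 and Hspa1b differed by -0.05, 0.35 and -0.27. Iron storage and transport genes were higher in 8 of 10 cases (median 0.08). Slc40a1, the iron exporter ferroportin, was at 9.90, 13.5, 10.5 and 10.97 CPM in SCZ and at 6.10, 8.12 and 8.73 CPM in Control, without overlap (log2 fold change 0.54, SE 0.16), and Tfrc and Fth1 differed by 0.23 and 0.03.

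**Figure D4:**
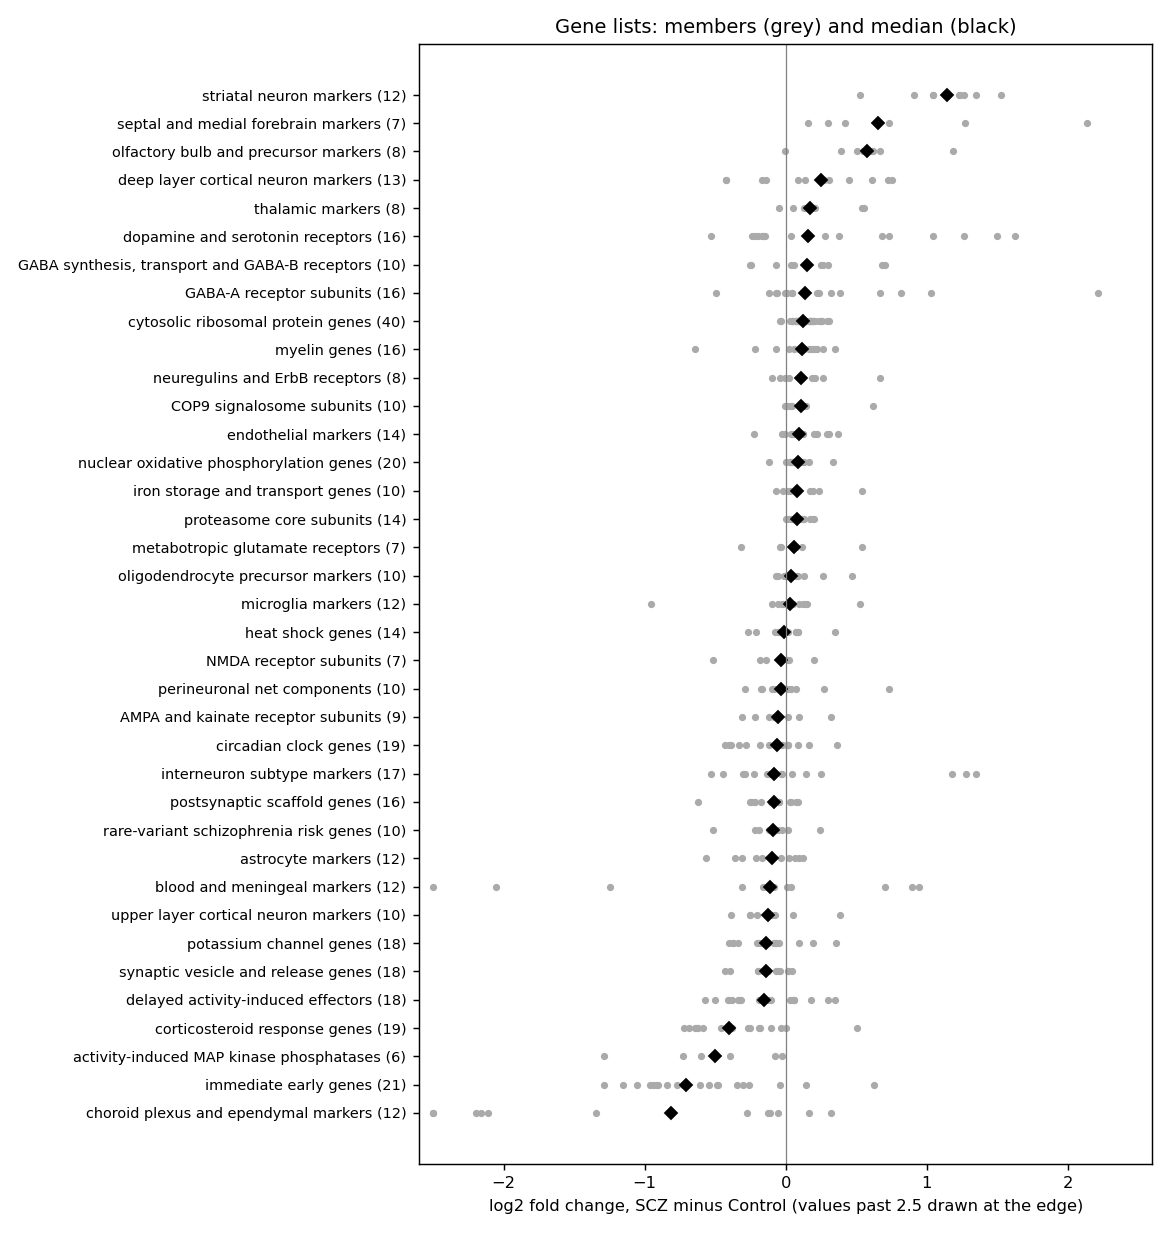
Log2 fold change of SCZ against Control for each tested member (grey points) of 37 gene lists and the list median (black diamonds), ordered by median; the number of tested members is in brackets. Medians run from -0.81 for choroid plexus and ependymal markers, followed by -0.71 for immediate early genes, to 1.14 for striatal neuron markers; without Control replicate 2 the choroid plexus median was 0.155.

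Gene length went along with the direction of the difference. Exonic length was the union of a gene's exons, and 16329 of the tested genes (99.5%) had one. Genes at an unadjusted p under 0.05 that were higher in SCZ had a median exonic length of 3640 bp and those that were lower 5858 bp, against 4250 bp for all tested genes with a length. Genes were put into 5 equal bins by length. In the bin of the shortest genes 259 were higher and 118 lower, and in that of the longest 133 were higher and 443 lower. With bins by gene span, introns included, the longest held 187 higher and 456 lower, but 289 higher and 138 lower with c-MSST. Spearman's correlation across genes between exonic length and log2 fold change was -0.137, and -0.02 in the pair with c-MSST; genes are not independent replicates and the value is a description. By library, the correlation of length with the level relative to the mean of all libraries was -0.083 to -0.153 in SCZ and -0.082 to 0.121 in Control, with Control replicate 5 at the low end of Control and Control replicate 1 at the high end. Of the lists that were mostly higher, several were shorter than the median gene. Among them were ribosomal (median exonic length 1990 bp), proteasome (2335 bp), oxidative phosphorylation (2552 bp) and myelin genes (3637 bp). Others were longer than the median gene, with 6281 bp for GABA synthesis and transport genes, 5486 bp for deep layer markers and 8757 bp for thalamic markers. Of those that were mostly lower, several were long, with 7661 bp for potassium channel genes, 9157 bp for postsynaptic scaffold genes and 12414 bp for the schizophrenia risk genes, and Grin2a had 17933 bp. Immediate early genes (3189 bp), MAP kinase phosphatases (2606 bp), corticosteroid response genes (3582 bp) and choroid plexus and ependymal markers (2460 bp) were mostly lower while shorter than the median gene. The part of length in the values of these lists was not tested.

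**Figure D5:**
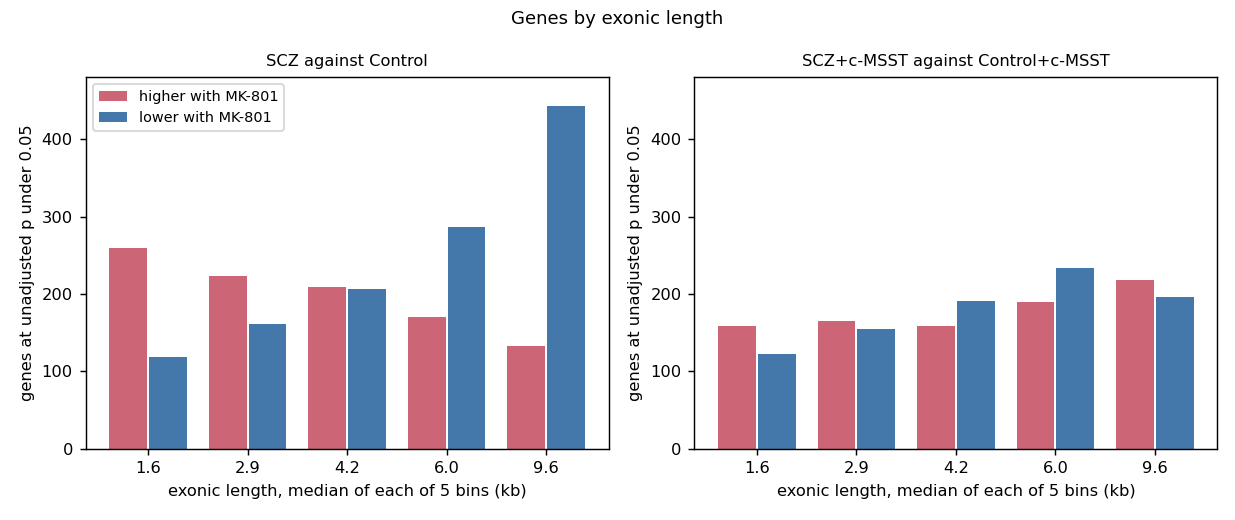
Number of genes at an unadjusted p under 0.05 (edgeR) that were higher or lower with MK-801, in 5 bins of exonic length (median of each bin in kb), without c-MSST (left) and with c-MSST (right). Without c-MSST, counts go from 259 higher and 118 lower in the shortest bin to 133 higher and 443 lower in the longest; with c-MSST they are 158 and 123, and 218 and 196.

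The 9 libraries with c-MSST gave a second measurement of the same genes. No gene passed there either (0 of 16417 by edgeR, 73 by DESeq2 and 40 by limma voom), with 1801 (11%) at an unadjusted p under 0.05, of which 897 (5.46%) were higher and 904 (5.51%) lower with MK-801. Across genes, the log2 fold changes of the pairs had a Pearson correlation of 0.157 and a Spearman correlation of 0.187 (n = 16417 genes, which are not independent; both pairs share the striatal marker difference and 1 fit). Of the 2219 genes at an unadjusted p under 0.05 without c-MSST, 69.7% had the same direction with c-MSST, beside 57% of all genes. Of the 2219, 311 also had an unadjusted p under 0.05 there in the same direction, beside 1257 of all 16417. The median size of the 2219 was 0.27 without and 0.06 with c-MSST, counted in the direction of the former. Among the 24 ranked genes 19 kept their direction, with medians of 0.49 and 0.06. The difference between the pairs was tested for every gene: 0 passed adjustment in edgeR, 1196 (7.29%) had an unadjusted p under 0.05, and DESeq2 called 40. Because it contains the contrast without c-MSST, it is no independent test for genes or list members named by a small p there. Of the 24 ranked genes, 19 had an unadjusted p under 0.05 for it.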

How the data were processed

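RNA of the left prelimbic cortex was sequenced from total RNA with a stranded library kit, per the labels' protocols. The authors deposited a table of whole-number counts per gene, which were treated as estimated counts because StringTie is the only quantifier named, and a table of FPKM values, which the authors had scaled by length and depth. The processing notes of the submitters name mm10, the aligner STAR (2.7.7a), StringTie (1.3.5), Picard (2.18.29) and fastp (0.19.5). The annotation and the use of strand are not given in the sources used here, so overlapping and antisense genes are uncertain. In the FPKM table, 11 gene names that had become dates were restored.

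Of 20938 genes in the count table, 2327 had no count and 16417 passed filterByExpr. They were fitted in 1 model of all 19 libraries with a coefficient per group (edgeR 4.0.16, R 4.3.3, TMM, glmQLFit robust, glmQLFTest), with Benjamini-Hochberg adjustment, and 3 contrasts were tested. The script was tested on simulated data. DESeq2 1.42.0 and limma 3.58.1 (voom, and a fit of the deposited FPKM on the log2 scale after adding 1 or 0.1) were alternatives, beside other scalings, other filters, a fit of the compared groups only, a replicate block, covariates and left-out libraries. Library totals and the level that a count of 0 allows are given with the results. A marker score is the mean log2 CPM (prior count 2) of a list, each gene centred on its mean over the libraries. Gene positions and lengths are from GENCODE M21 (mm10) and promoters from RefSeq (GRCm38.p6).

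The comparison, the 37 gene lists and the rule for named genes were chosen with earlier results of these data known. The rule took, for either direction, the 12 genes of smallest p whose mean was 1 CPM or more and whose names were not predicted ones, the list members with the smallest p and the highest mean, and Gabre, Grin1, Grin2a and Grin2b. List members mentioned only by their log2 fold change, and Fos, Npas4, Drd2, Hbb-b1 and Id3, were chosen after their values were seen. No 2 libraries had identical values (highest correlation 0.981).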

Additional observations from a re-analysis of the deposited data

Results flagged for a closer look

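Of 286 groups of 4 or 6 libraries tested over the named genes, 25 held a library far from the rest by Dixon's test, where chance would give about 14.3. SCZ replicate 1 was the outlying SCZ library in Arrdc2 (11.4 CPM), Plin4 (22.8) and Ttr (7.78) on the high side and in Bsg (262) and Tiparp (13.4) on the low side. SCZ replicate 5 was high in Lhx8 (7.34), Otof (83.0) and Tac1 (49.2) and low in Atp5b (734), Kcnj3 (130), Psmb1 (67.0) and Tbr1 (144). SCZ replicate 2 was low in Galnt13 (51.3) and Nrg1 (25.5). In Control, replicate 2 was high in Ttr (1607), Enpp2 (822), Kl (88.0) and Per2 (84.1), and replicate 3 in Dcn (53.9) and Grin3a (121). Replicate 1 was high in Cldn5 (21.0) and low in Psmb5 (24.03), replicate 5 high in Gps1 (83.6), and replicate 7 high in Npas4 (26.4) and low in Grm5 (284). All values are CPM.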

How the results depend on the processing

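No gene was called between SCZ and Control by edgeR with TMM or RLE factors, with other filters on low counts, with the striatal score or without Control replicates 2 and 3. Calls were 238 with DESeq2, 2 with limma voom, 1 each with upper-quartile scaling, the 10 libraries alone, 3 marker scores (Mrpl16), FPKM with either pseudocount and without Control replicates 2, 3 and 7 (Cacna2d1), and 806 without Control replicates 4 and 5. Those 2 libraries were picked by haemoglobin after the data were seen, and they also have the highest striatal markers of Control; 640 of the 806 had the same direction with c-MSST, beside 57% of all genes when no library is left out. Leaving out 1 library gave 0 to 94 calls: 94 without Control replicate 4, 14 without Control replicate 5, 3 without SCZ replicate 1, and 1 without SCZ replicate 3 or Control+c-MSST replicate 2 or 7. The 2219 genes at an unadjusted p under 0.05 became 1154 with the striatal score, 984 with 3 scores, 1475 without Control replicates 2, 3 and 7, and 3356 without 4 and 5; leaving out 1 library gave 1722 to 2685. On FPKM values the split was 1196 higher and 495 lower with a pseudocount of 1, and 1175 and 507 with 0.1, against 1000 and 1219. With c-MSST, calls were 73 by DESeq2, 40 by voom, 1 without Control replicates 2 and 3 and 0 to 1 without 1 library (1 without Control+c-MSST replicate 1). For the difference they were 40 by DESeq2, 1 without Control replicates 2 and 3, 3 without Control replicates 4 and 5 and 0 to 1 without 1 library (1 without SCZ replicate 3). Signs turned for several genes, among them Dcn (0.046 without Control replicates 2 and 3, 0.004 without 7 as well). Those of Kl (0.074 with 3 scores, 0.431 and 0.285 with those libraries left out) and Ttr (0.187 with the striatal score, 0.04 without Control replicates 2 and 3) turned too. So did that of Drd2 (-0.286 with the striatal score, -0.188 with 3 scores). Drd2 and Kl are members of a score in those fits, so their values with it are no independent check. The cause of these changes was not tested. Replicate numbers did not pair SCZ with Control (correlations of deviations -0.036 to 0.02, and no SCZ library was nearest to its own number); with the replicate block 0 genes were called and 1965 had an unadjusted p under 0.05. Genes under 1 CPM, such as Gabre, rest on few counts.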

Other observations

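Some genes split the libraries into separate levels that follow neither MK-801 nor c-MSST. Dcx, a microtubule protein of young neurons, was at 82.1 and 86.4 CPM in SCZ replicates 3 and 2 and at 20.5 and 24.1 CPM in SCZ replicates 1 and 5. In Control it was at 73.3, 84.9 and 97.1 CPM in replicates 2, 5 and 7 and at 18.6, 22.9 and 23.4 CPM in replicates 1, 3 and 4. P2ry12, a receptor of microglia, was at 50.2 and 40.2 CPM in Control replicates 1 and 5 and at 7.41 to 12.0 CPM in the other 8 libraries. These genes were picked after their values were seen, and the labels hold nothing that matches either split.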
